A study of Mus musculus with 4 samples.

Results

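The genes described here encode the Myc, Max and Mxd transcription factors, and they were followed in blood stem and progenitor cells of mouse fetal liver labelled Brpf1-null or wildtype. The network was taken as 10 genes by their symbols, and all 10 were present among the 20207 genes of the deposited table. They are the activators Myc, Mycn and Mycl1, the partner Max, the antagonists Mxd1, Mxd3, Mxd4, Mxi1 and Mnt, and Mlx, which is the Max-like partner of part of the network. LSK cells, named for lacking lineage markers while carrying Sca-1 and Kit, were sorted from livers of embryos at E14.5, and oligo-dT-primed RNA-seq libraries were made from about 10000 cells pooled from 4 embryos. The labels give 2 Brpf1-null and 2 wildtype samples in 2 pairs, but the tables of both pairs held the same values for every gene. They were therefore counted as 1 Brpf1-null library and 1 wild-type library (n = 1 each), no difference below has a replicate check, and no p-value was computed. Brpf1 encodes a chromatin reader that scaffolds MYST-family histone acetyltransferases. How the null allele was made, and in which cells, is not given in the sources used here.

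Myc-family proteins bind E-box DNA only as dimers with Max, and such dimers recruit acetyltransferases and raise transcription of genes of ribosome production, metabolism and cell division. The Mxd proteins and Mnt also dimerize with Max at the same sites, but they bring in the Sin3 corepressor, so activators and antagonists compete for Max and for DNA. Mlx dimerizes with Mxd1, Mxd4 and Mnt and with the glucose-sensing factors MondoA and ChREBP. In blood formation, Myc and Mycn are known for supporting the proliferation and differentiation of stem cells, and Mxd proteins for accompanying the exit from the cell cycle.

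Since dimers of the network bind the E-box CACGTG, the promoters of the members were searched for that word. RefSeq windows (GRCm38.p6) of 300 bases, running from 250 bases before to 50 bases after an annotated start, were used for 9 of the 10 members, all but Myc. The word is its own reverse complement, so 1 search covers both strands. It occurred in windows of 4 of these 9 members, Max, Mxd4, Mnt and Mlx, against 8.09% of the 27025 genes with a window. The sites are shown with 10 bases on each side, 5′ to 3′ on the strand of the gene, with the E-box in capitals.
Max, chr12:76962236-76962261, minus strand: tgagcccggtCACGTGttagggggcc
Mxd4, chr5:34187914-34187939, minus strand: gctgggccacCACGTGctgttgctaa
Mnt, chr11:74830791-74830816, plus strand: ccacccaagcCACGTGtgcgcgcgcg
Mlx, chr11:101087240-101087265, plus strand: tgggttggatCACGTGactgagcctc
The site of Max begins 3 bases before the annotated start and runs across it, whereas those of Mlx, Mnt and Mxd4 begin 40, 123 and 219 bases before it. The whole Max window, chr12:76962199-76962498 on the minus strand, is shown because Max is the shared partner and its log2 change, with 1 RPKM added, was the lowest of the members.
Max promoter: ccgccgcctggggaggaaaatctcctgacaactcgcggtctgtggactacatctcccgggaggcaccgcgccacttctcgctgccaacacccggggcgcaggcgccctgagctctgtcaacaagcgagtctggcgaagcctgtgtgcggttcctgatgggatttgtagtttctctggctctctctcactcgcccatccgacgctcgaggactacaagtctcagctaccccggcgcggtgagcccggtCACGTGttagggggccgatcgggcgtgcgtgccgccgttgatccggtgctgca
A match describes these letters and does not show that a factor binds there.

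Values are RPKM, which scales reads by gene length and library size. Depth was about 22226600 reads in the Brpf1-null and 23655400 in the wild-type library, as recovered from the spacing of low values. Brackets after a fold give the 95% counting interval from estimated read numbers. It covers counting error only, and reads copied by PCR are not independent molecules, so it can be too narrow. Log2 changes compare RPKM + 1 in Brpf1-null with RPKM + 1 in wild-type cells, a scale that compresses the differences of low genes, and a gene is called higher or lower when this value passes 1.5-fold. Folds are ratios of RPKM without the added 1. Brpf1 itself was at 2.15 RPKM in the Brpf1-null and 2.59 RPKM in the wild-type library, 1.20-fold lower (1.00 to 1.44). Such a gene-wide value does not resolve single exons, and loss of part of the gene was not tested. Of the genes behind the sort gate, Kit was at 21.3 RPKM in the Brpf1-null and 25.6 RPKM in the wild-type library, and Ly6a, which encodes Sca-1, at 9.51 RPKM in the Brpf1-null and 10.6 RPKM in the wild-type library. Of the 2 other stem and progenitor genes listed with them, Cd34 was at 179 RPKM in the Brpf1-null and 117 RPKM in the wild-type library, 1.54-fold higher (1.49 to 1.58), and Flt3 at 33.1 RPKM in the Brpf1-null and 22.9 RPKM in the wild-type library, 1.45-fold higher (1.37 to 1.54). These genes mark progenitor subsets within LSK cells, and the part of such subsets in the values below was not tested. Transcripts of cells outside the gate were present and differed between the libraries. Summed RPKM was 520 in the Brpf1-null and 1980 in the wild-type library over 10 hepatocyte markers, 92.8 in the Brpf1-null and 612 in the wild-type library over 8 erythroid markers, and 81.3 in the Brpf1-null and 261 in the wild-type library over 7 B-cell markers. All 10 hepatocyte and all 8 erythroid markers, and 6 of the 7 B-cell markers, were below wild-type, while the B-cell factor gene Pax5 was listed at 0 in both libraries. Of 5 macrophage and of 5 neutrophil markers, 4 each were below wild-type; the exceptions were Csf1r, at 28.8 RPKM in the Brpf1-null and 8.31 RPKM in the wild-type library, and Ltf, at 2.61 RPKM in the Brpf1-null and 1.77 RPKM in the wild-type library. In bulk RNA, fewer cells of a type and less RNA per cell cannot be told apart, and the part of these cell types in the values below was not tested.

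In Brpf1-null cells the lowest members relative to wild-type were Max (4.14-fold lower) and Mxd3 (4.93-fold lower), Mxd1 was 1.96-fold lower, Myc was 1.67-fold higher and Mnt 2.16-fold higher. Mycn, Mxi1 and Mlx lay within 1.5-fold, as did Mycl1 and Mxd4 once 1 RPKM was added to their low values. Thus 2 of the 10 members were called higher and 3 lower. Among the 9380 genes averaging 1 RPKM or more over both libraries, 14.1% were called higher and 9.42% lower, and among the 14228 genes above 0 in at least 1 library the shares were 10.1% higher and 7.59% lower. Higher genes made up 59.9% of the calls among the 9380 genes as deposited and 44.4% after centring both libraries on their medians. Counts this small do not set the list apart from that background. An average of 1 RPKM was reached by 8 members, and the others were Mycl1 and Mxd4. The median log2 change was 0.22 over all 10 members, beside 0.01 over the 14228 genes. Over the 8 members averaging 1 RPKM or more it was −0.08, beside 0.04 over the 9380 genes, so its sign depended on 2 low genes.

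**Figure D1:**
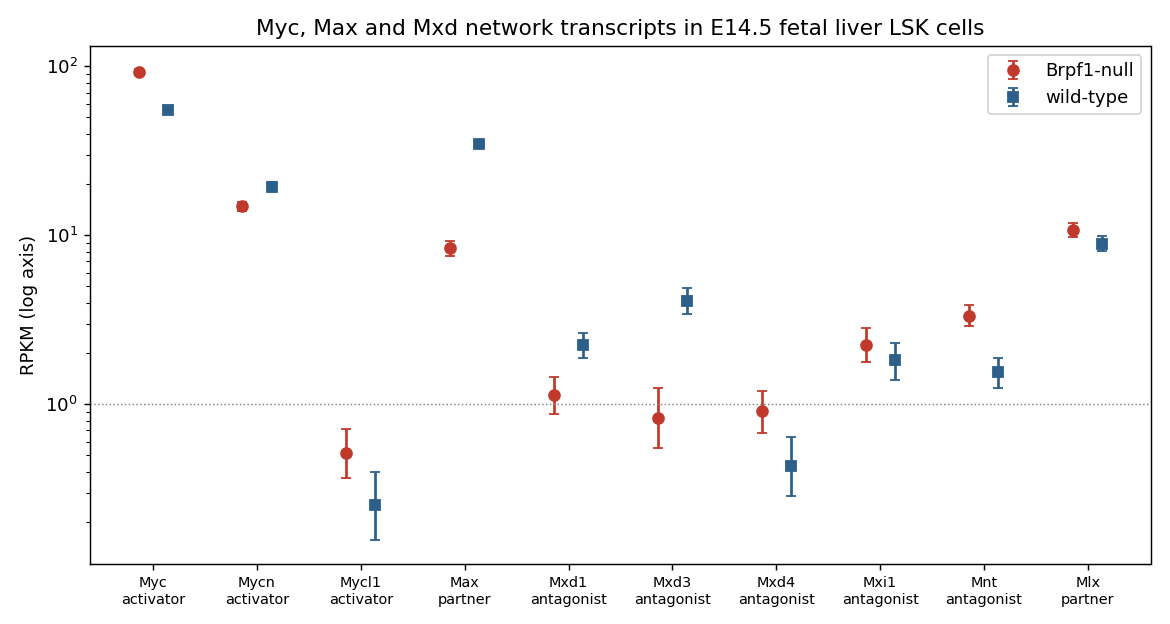
RPKM on a log axis of the 10 network genes in the Brpf1-null library (red circles, left of each pair) and the wild-type library (blue squares, right), with exact 95% Poisson counting intervals; n = 1 library per genotype and the dotted line marks 1 RPKM. Max is at 8.37 RPKM in Brpf1-null and 34.6 in wild-type cells, while Myc is at 92.8 RPKM in Brpf1-null and 55.4 in wild-type cells.

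Myc, the broad activator of growth genes, was the most abundant member in both libraries. It was at 92.8 RPKM in the Brpf1-null and 55.4 RPKM in the wild-type library. It was 1.67-fold higher (1.59 to 1.76), on about 3697 Brpf1-null and 2349 wild-type reads. Its log2 change of 0.73 lay above those of 90.9% of the 9380 genes. Removal of the trend of log2 change on transcript GC content lowered it to 0.51, which no longer passes 1.5-fold. That trend ran from a median log2 change of −0.15 in the lowest to 0.23 in the highest decile of GC content, and Myc transcripts had 55.98% GC against a median of 50.9% over genes.

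Mycn, the family member known from neural and early blood progenitors, was at 14.8 RPKM in the Brpf1-null and 19.4 RPKM in the wild-type library. It was 1.31-fold lower (1.20 to 1.43), so the more abundant pair of activators lay on opposite sides of 0. The ratio of Myc to Mycn was 6.26 in the Brpf1-null and 2.85 in the wild-type library, a quotient that scaling of a library cannot move. Mycl1, the third paralog (now named Mycl), was low in both libraries. It was at 0.515 RPKM in the Brpf1-null and 0.254 RPKM in the wild-type library, on about 38 Brpf1-null and 20 wild-type reads, and its ratio of 2.03 (1.15 to 3.67) has a wide interval. With the shortest coding transcript there are about 4 Brpf1-null and 2 wild-type reads, and the interval of 0.305 to 23.5 holds 1. Summed over the 3 activators, the level was 108 RPKM in the Brpf1-null and 75.1 RPKM in the wild-type library, nearly all of it Myc and Mycn.

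Max, the obligate partner of the activators that antagonists also use, showed the lowest log2 change of the network with 1 RPKM added. With a pseudocount of 0.1, and as a plain fold, Mxd3 was lower. Max was at 8.37 RPKM in the Brpf1-null and 34.6 RPKM in the wild-type library. That is 4.14-fold lower (3.69 to 4.66), on about 358 Brpf1-null and 1577 wild-type reads. Annotated Max coding transcripts differ in length, and with the shortest of them the interval was 3.44 to 5.0. Among the 9380 genes averaging 1 RPKM or more, 145 had a fold this low or lower, Max included. Of the 2636 that reached 20 RPKM in either library, 31 did, but Max reached that floor only in the wild-type library. Its log2 change of −1.93 lay above that of only 0.64% of the 9380 genes, and it ran from −2.04 to −1.57 over the processing alternatives. One value per gene does not resolve Max isoforms. In the Brpf1-null library Max ranked after Myc, Mycn and Mlx among the members, and in the wild-type library it ranked directly after Myc. None of these neighbours in rank had overlapping counting intervals. RPKM of Myc was 11.1 times that of Max in the Brpf1-null and 1.60 times that of Max in the wild-type library.

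Mlx, the parallel partner, lay on the other side of 0. It was at 10.7 RPKM in the Brpf1-null and 8.94 RPKM in the wild-type library, 1.20-fold higher (1.04 to 1.38), but with the shortest coding transcript the interval held 1 (0.888 to 1.63). The Max to Mlx ratio was 0.782 in the Brpf1-null and 3.87 in the wild-type library. Both genes have an E-box in the windows shown above, and so do Mnt and Mxd4. Of these, Max lay below 0, and Mlx, Mnt and Mxd4 above it, with Mxd4 averaging under 1 RPKM.

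The Mxd-type antagonists went both ways. Mxd3, known for expression in proliferating progenitors during the S phase, was at 0.831 RPKM in the Brpf1-null and 4.10 RPKM in the wild-type library. This 4.93-fold lower level (3.14 to 7.77) rests on about 25 Brpf1-null and 129 wild-type reads. Its log2 change ran from −2.17 with a pseudocount of 0.1 to −0.64 with a pseudocount of 5. Mxd1, the founding Mad protein, which is induced as myeloid cells differentiate, was at 1.14 RPKM in the Brpf1-null and 2.23 RPKM in the wild-type library. It was 1.96-fold lower (1.45 to 2.69) with the median transcript length. Its log2 change of −0.60 sat just past the 1.5-fold threshold, and a pseudocount of 5 brought it to −0.24. The shortest annotated coding transcript gives about 11 Brpf1-null and 22 wild-type reads and an interval that includes 1.

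Mnt, the widely expressed antagonist that restrains Myc in most cells, was at 3.35 RPKM in the Brpf1-null and 1.55 RPKM in the wild-type library. It was 2.16-fold higher (1.69 to 2.81), with a log2 change of 0.77, on about 194 Brpf1-null and 95 wild-type reads. With the shortest coding transcript there are about 46 Brpf1-null and 23 wild-type reads, and the interval is 1.26 to 3.68. Removal of the GC trend left 0.52 and a pseudocount of 5 left 0.35, both within 1.5-fold, and Mnt transcripts had 59.9% GC. Mxi1, also called Mxd2, was at 2.26 RPKM in the Brpf1-null and 1.82 RPKM in the wild-type library, a ratio of 1.24. Its interval held 1 with the median coding length (0.882 to 1.77) and excluded it with the longest (1.03 to 1.49). Mxd4, an antagonist associated with differentiating cells, was at 0.916 RPKM in the Brpf1-null and 0.430 RPKM in the wild-type library, on about 51 Brpf1-null and 26 wild-type reads, a ratio of 2.13 (1.28 to 3.49). In sum the 5 antagonists were close in level, at 8.49 RPKM in the Brpf1-null and 10.1 RPKM in the wild-type library, but their makeup differed. Mnt made up 39.4% of that sum in the Brpf1-null and 15.3% in the wild-type library, and Mxd3 9.79% in the Brpf1-null and 40.5% in the wild-type library.

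**Figure D2:**
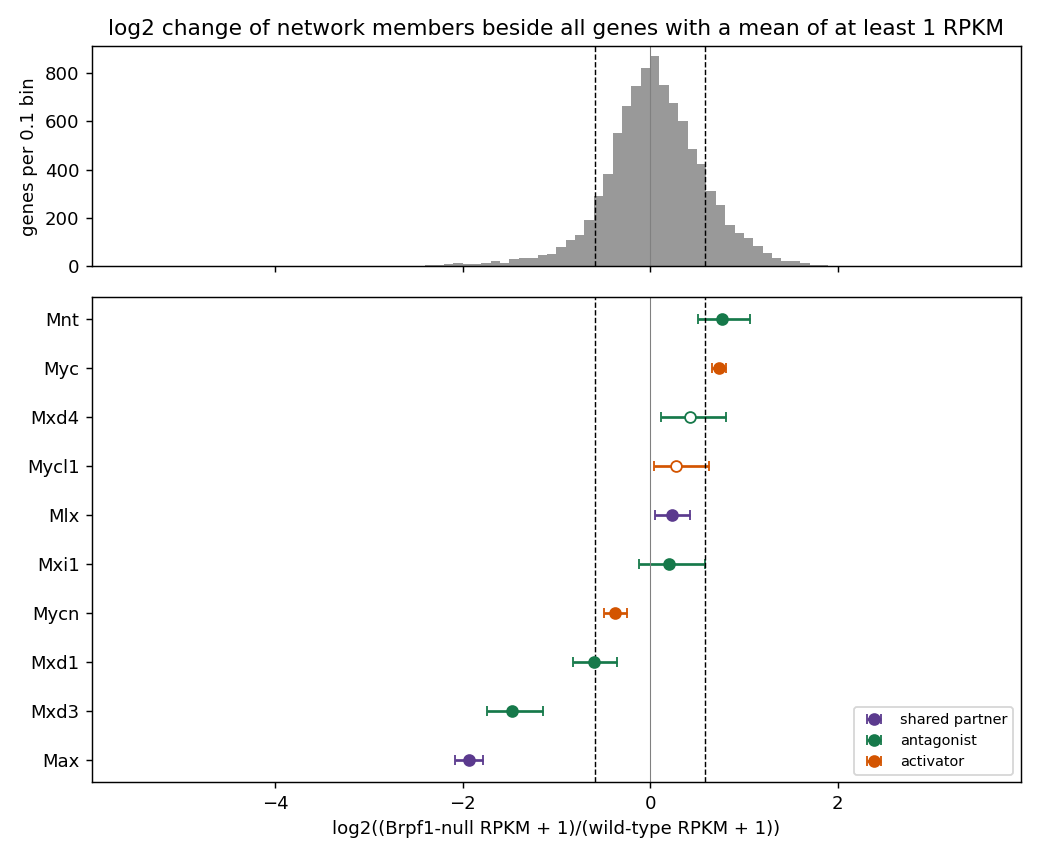
Top, number of genes per 0.1-wide bin of log2 change (Brpf1-null over wild-type, with 1 RPKM added) for the 9380 genes averaging 1 RPKM or more. Bottom, the same measure for each network gene with its 95% counting interval, coloured by role, with open circles for the 2 genes under that mean and dashed lines at 1.5-fold. Antagonists lie at both ends, with Mnt at 0.77 and Mxd3 at −1.48, and Max lies lowest on this scale at −1.93.

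Set against each other by role, activators and antagonists did not separate. Log2 changes of the 3 activators ran from −0.37 to 0.73 and those of the 5 antagonists from −1.48 to 0.77, so the activators lay inside the range of the antagonists. Over the members averaging 1 RPKM or more, the median of the activators exceeded that of the antagonists by 0.38, but the difference was 0.067 when all members entered. By level, Myc was 10.9 times the summed antagonists in the Brpf1-null and 5.46 times in the wild-type library, a 2.00-fold difference between the libraries. The order of the antagonists also differed. In the Brpf1-null library Mnt and Mxi1 led, and the counting intervals of each next pair among Mxd1, Mxd4, Mxd3 and Mycl1 overlapped. In the wild-type library Mxd3 led, and the intervals of Mxd1 with Mxi1, of Mxi1 with Mnt and of Mxd4 with Mycl1 overlapped.

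Part of the Mxd3 locus overlaps Prelid1 and part of the Mlx locus overlaps Psmc3ip in the RefSeq annotation, and whether reads were counted by strand is not given in the sources used here. Prelid1 was at 66.7 RPKM in the Brpf1-null and 74.1 RPKM in the wild-type library, and Psmc3ip at 53.0 RPKM in the Brpf1-null and 58.3 RPKM in the wild-type library. Both are more abundant than their neighbours in the network, so the Mxd3 and Mlx values are uncertain to the extent that reads were shared.

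Genes around the network were described from lists of textbook members, counting those averaging 1 RPKM or more. In the extended network, 1 of 6 genes was called higher and 0 lower, beside 14.1% higher and 9.42% lower over all 9380 genes. That gene was Mlxip, which encodes the Mlx partner MondoA, at 3.72 RPKM in the Brpf1-null and 2.07 RPKM in the wild-type library, 1.80-fold higher (1.53 to 2.12). Zbtb17, which encodes the Myc-binding repressor partner MIZ1, was at 5.53 RPKM in the Brpf1-null and 3.60 RPKM in the wild-type library. Mga, which encodes a large protein that dimerizes with Max, was at 2.08 RPKM in the Brpf1-null and 2.26 RPKM in the wild-type library, and was chosen after its values were seen.

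Counts of called cofactor genes were small, and stand beside 14.1% higher and 9.42% lower over all 9380 genes. Of 17 measured genes of the Sin3 corepressor used by the antagonists, 0 were called higher and 0 lower, and the median log2 change was −0.01. Sin3b had the largest log2 change of these in size, at 32.3 RPKM in the Brpf1-null and 44.7 RPKM in the wild-type library. Of 12 Myc coactivator genes, 1 was called higher and 0 lower. Wdr5, a histone methyltransferase subunit that binds Myc, was at 16.9 RPKM in the Brpf1-null and 10.9 RPKM in the wild-type library, with a log2 change of 0.59 at the edge of the threshold. Of 12 genes acting on Myc protein stability, 2 were called higher and 0 lower, beside the same background. They were Usp36, a nucleolar deubiquitinase, at 6.18 RPKM in the Brpf1-null and 2.67 RPKM in the wild-type library, and Fbxw7, the ubiquitin ligase subunit that targets Myc for degradation, at 4.12 RPKM in the Brpf1-null and 1.66 RPKM in the wild-type library. Fbxw7 was 2.48-fold higher (2.04 to 3.01) and Usp36 2.32-fold higher (2.04 to 2.63).

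Of 35 genes known as induced by Myc, 11 (31.4%) were called higher and 2 (5.71%) lower, beside 14.1% higher and 9.42% lower over all genes kept, and the median log2 change was 0.28 against 0.04 over all 9380 genes. With the GC trend removed, 7 were called higher and 2 lower, beside 10.5% higher and 10.8% lower over all genes in that setting. After centring, 9 were called higher and 4 lower, beside 10.2% higher and 12.8% lower over all genes. Ncl, which encodes the nucleolar protein nucleolin, was at 54.1 RPKM in the Brpf1-null and 16.9 RPKM in the wild-type library, 3.21-fold higher (3.04 to 3.39). Fbl, the gene of the rRNA methyltransferase fibrillarin, was 2.33-fold higher (2.14 to 2.54) and the nucleotide kinase gene Nme1 2.13-fold (2.02 to 2.25). Ccnd2, which encodes cyclin D2, was at 68.8 RPKM in the Brpf1-null and 32.5 RPKM in the wild-type library, 2.12-fold higher (1.94 to 2.31). Others of the same list lay near 0 or below. The lactate dehydrogenase gene Ldha was at 620 RPKM in the Brpf1-null and 601 RPKM in the wild-type library, and the polyamine enzyme gene Odc1, a classical Myc target, at 63.6 RPKM in the Brpf1-null and 61.3 RPKM in the wild-type library. The 2 called lower were Eif4a1, a translation initiation helicase gene, at 111 RPKM in the Brpf1-null and 194 RPKM in the wild-type library, and Tfrc, the transferrin receptor gene that erythroid cells express strongly, at 9.77 RPKM in the Brpf1-null and 19.1 RPKM in the wild-type library. Nucleolar genes were also found on the lower side of 0, such as Npm1 at 1261 RPKM in the Brpf1-null and 1583 RPKM in the wild-type library and Nop56 at 206 RPKM in the Brpf1-null and 256 RPKM in the wild-type library. Ldha, Odc1, Npm1 and Nop56 were chosen after their values were seen. An E-box stood in the promoter window of 8 of the 29 list members that had a window (27.6%), beside 8.09% of all 27025 genes with a window. Among genes with a window that averaged 1 RPKM or more, 928 had an E-box and 6528 lacked it.

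**Figure D3:**
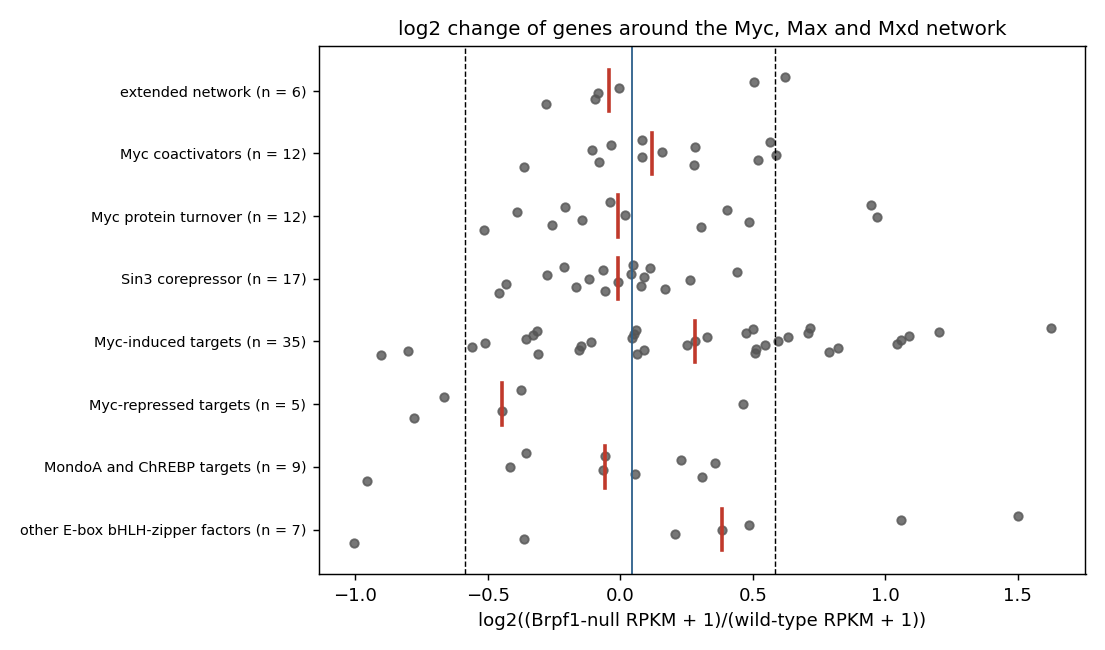
Log2 change (Brpf1-null over wild-type, with 1 RPKM added) of each gene averaging 1 RPKM or more in 8 lists around the network. Red bars are list medians, the blue line is the median of all 9380 genes (0.04), dashed lines mark 1.5-fold, and vertical scatter within a list has no meaning. Myc-induced genes have a median of 0.28 and the Sin3 genes a median of −0.01.

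Only 5 of the 10 genes listed as repressed by Myc reached a mean of 1 RPKM, so this list says little. None was called higher (0 of 5) and 2 were called lower, beside 14.1% higher and 9.42% lower over all 9380 genes. Gadd45a, a growth arrest gene, was at 1.40 RPKM in the Brpf1-null and 3.11 RPKM in the wild-type library, on about 22 Brpf1-null and 53 wild-type reads. The atypical cyclin gene Ccng2 was at 3.09 RPKM in the Brpf1-null and 5.48 RPKM in the wild-type library. Ndrg1 lay on the other side of 0, at 1.65 RPKM in the Brpf1-null and 0.92 RPKM in the wild-type library. It was 1.79-fold higher on about 21 Brpf1-null and 13 wild-type reads, and its interval of 0.82 to 3.74 holds 1. The inhibitor gene Cdkn1b, which encodes p27, was at 1.82 RPKM in the Brpf1-null and 2.83 RPKM in the wild-type library.

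Of the targets of MondoA and ChREBP dimers with Mlx, 0 of 9 were called higher and 1 lower, beside 14.1% higher and 9.42% lower over all 9380 genes. Txnip, the thioredoxin-interacting protein gene known as the leading MondoA target, was at 22.1 RPKM in the Brpf1-null and 23.1 RPKM in the wild-type library, and was chosen after its values were seen. The gene called lower was Pklr, the pyruvate kinase of liver and red cells, at 2.37 RPKM in the Brpf1-null and 5.53 RPKM in the wild-type library. Hepatocyte and erythroid markers were lower in the same library, as given above, and their part in this value was not tested.

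Other bHLH-zipper factors that bind E-boxes without Max were also measured, and 2 of 7 were called higher and 1 lower, beside 14.1% higher and 9.42% lower over all 9380 genes. Usf1 was at 32.9 RPKM in the Brpf1-null and 10.96 RPKM in the wild-type library, 3.0-fold higher (2.70 to 3.33). Its partner gene Usf2 was at 16.0 RPKM in the Brpf1-null and 7.14 RPKM in the wild-type library, 2.24-fold higher (1.83 to 2.72). Tcfec, a macrophage and osteoclast relative of Mitf, was at 1.88 RPKM in the Brpf1-null and 4.78 RPKM in the wild-type library, 2.54-fold lower (1.83 to 3.62). Summed RPKM of the 8 genes in this list was 65.0 in the Brpf1-null and 35.3 in the wild-type library. Usf1 and Usf2 carried this difference, so the sum does not describe the other genes. By plain RPKM, 5 of the 8 were above wild-type and 3 below.

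**Figure D4:**
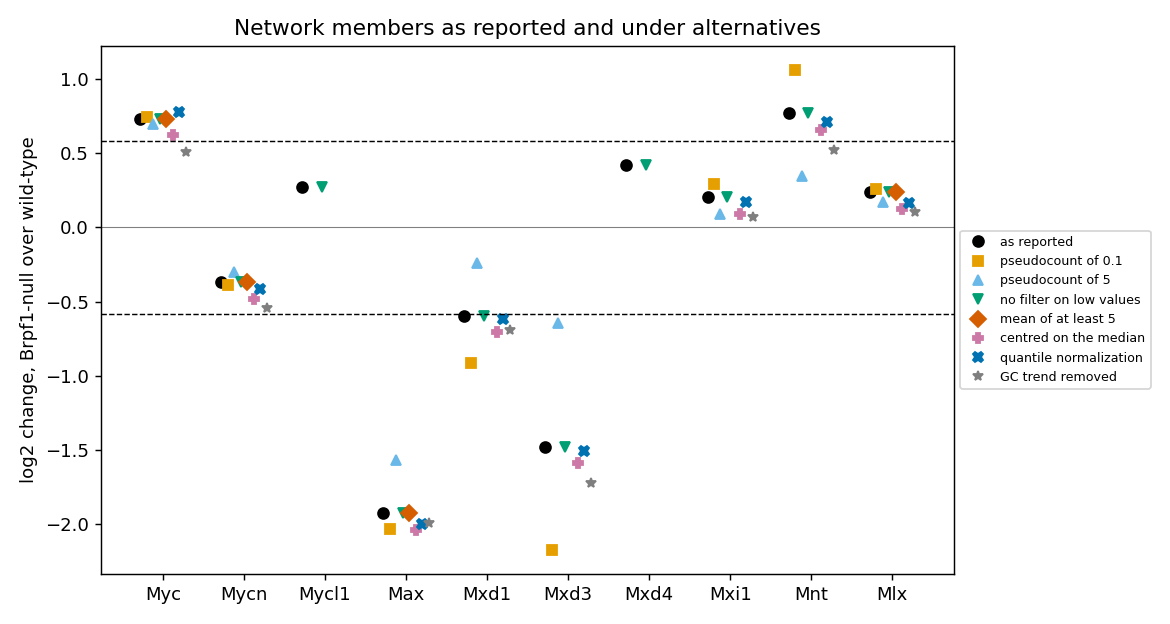
Log2 change (Brpf1-null over wild-type) of each network gene as reported and under the processing alternatives that give it a value, with dashed lines at 1.5-fold. None of the 8 genes averaging 1 RPKM or more crosses 0, and Mycl1 and Mxd4 have only the unfiltered value; Max and Mxd3 stay past 1.5-fold wherever they have a value, while Myc, Mnt and Mxd1 each fall inside it under at least 1 alternative.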

How the data were processed

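RNA-seq libraries of LSK cells were aligned with TopHat to mm9, per the submitters' processing notes; no source used here names the counter, annotation, strand setting or filters. For each pair the authors deposited a table, of RPKM for pair 1 and FPKM for pair 2, per the file headers. All 20207 symbols matched, and 0 Brpf1-null and 0 wild-type values differed, so they were read as 1 library per genotype. The deposited fold (a ratio) is wild-type over Brpf1-null, within a tolerance of 0.001, for all 12624 genes that have one. Neither this fold nor the deposited log2 was used.

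The 10 members and the gene lists were chosen with earlier results of these data known. All members are named, with up to 4 genes per list by size of log2 change and those needed to state a count of 5 or fewer; others are marked in the text as chosen after their values were seen. The planned limma fit and block could not be made with 1 library per genotype, so fold thresholds of 1.5 on log2(RPKM + 1) stand in, over genes averaging 1 RPKM or more.

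The ratio of library sizes came from ratios of values under 0.3 RPKM (42.1% of 1203 genes gave ratios of whole reads within 0.2%, against 2.49% with that ratio raised by 5%). Their scale came from genes with a single transcript in GENCODE M21 (GRCm38, used for lengths and GC content, 98.1% of symbols matched). Of the values tested, 61.3% of 476 in Brpf1-null and 59.6% of 468 in wild-type were whole within 0.1 read. Read numbers use the median length of coding transcripts and are approximate. Fold intervals are exact Clopper-Pearson intervals of the Brpf1-null share of reads at 95%. The recovery was tested on data simulated with Poisson counts from the same GENCODE median lengths. That test does not cover a mismatch with the annotation behind the deposited values, which is not named. The GC trend was removed by lowess (fraction 0.3, statsmodels 0.14.6). Python 3.11.15, pandas 2.3.3 and scipy 1.17.1 were used. Alternatives were other pseudocounts, filters and thresholds, median centring, quantile normalization and GC trend removal.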

Additional observations from a re-analysis of the deposited data

How the results depend on the processing

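No paired analysis was possible because both pairs' tables hold the same values, and for the same reason no replicate could be left out. None of the 8 members averaging 1 RPKM or more changed sign under the alternatives run on them; Mxd1, Mxd3, Mxi1 and Mnt had no value at a minimum mean of 5 RPKM, and Mycl1 and Mxd4 had only the unfiltered one, which cannot move a value. Max stayed between −2.04 and −1.57. Centring moved the median of all genes to −0.07, from 0.04 as deposited, a change of scale that made 44.4% rather than 59.9% of calls past 1.5-fold higher ones; quantile normalization gave 52.3% and GC trend removal 49.3%. The cause of the other changes was not tested.

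Of the 8 members averaging 1 RPKM or more, 1 was called higher with a pseudocount of 5. With the GC trend removed, and at 2-fold, 0 were called higher. A minimum mean of 5 RPKM tests fewer genes and left only Myc, Mycn, Max and Mlx, of which 1 was called higher and 1 lower. Beside these, 5.91% of all genes were higher with a pseudocount of 5 and 10.5% with the GC trend removed. At a minimum mean of 5 RPKM, 14.3% were higher and 8.71% lower. The activator minus antagonist median was 0.49 with a pseudocount of 0.1, 0.27 with 5, 0.067 with no filter and 0.78 without Mnt. The Myc to antagonist ratio between libraries was 2.80 without Mnt, 2.14 after quantile normalization and 2.15 over members with a minimum mean of 1 RPKM. Of 9380 genes, 554 were called higher and 393 lower with a pseudocount of 5, and 388 and 325 at 2-fold. A minimum mean of 5 RPKM gave 793 higher and 483 lower of 5546 genes.

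With a pseudocount of 0.1, 2 extended network genes, 2 coactivators, 1 Myc-repressed gene and 4 other E-box factors were called higher. With a pseudocount of 5, 0 extended network, 0 coactivator and 0 turnover genes were higher, and 0 Myc-repressed, 0 MondoA and 0 E-box factor genes lower. With no filter, 1 turnover gene was lower. With a minimum mean of 5 RPKM, 0 extended network and 0 turnover genes were higher, and 0 MondoA targets and 0 E-box factors lower. After centring, 0 extended network and 0 coactivator genes were higher, and 1 turnover gene and 4 Myc-induced genes lower. After quantile normalization, 0 extended network and 0 coactivator genes were higher. With the GC trend removed, 0 extended network, 0 coactivator and 7 Myc-induced genes were higher, and 2 turnover, 1 Sin3, 1 Myc-repressed and 2 E-box factor genes lower. At 2-fold, 0 extended network, 0 coactivator, 0 turnover and 5 Myc-induced genes were higher, and 0 Myc-induced, 0 Myc-repressed and 0 MondoA targets lower. Of all 9380 genes, 388 were higher and 325 lower at 2-fold. The lists held 6 extended network, 12 coactivator, 12 turnover and 17 Sin3 genes at a minimum mean of 1 RPKM. There were also 35 Myc-induced, 5 Myc-repressed, 9 MondoA and 7 E-box factor genes at that mean. Depth limits Mycl1, Mxd1, Mxd3, Mxd4, Mxi1 and Mnt, with 20 to 194 estimated reads per library.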

Other observations

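Genes with the E-box CACGTG in their promoter window were compared with the rest as a description of these 2 libraries. Of 928 such genes averaging 1 RPKM or more, 16.8% were called higher and 7.44% lower in the Brpf1-null library, with a median log2 change of 0.08. Of the 6528 genes whose windows lack it, 13.8% were called higher and 9.36% lower, with a median of 0.04. After removal of the GC trend the medians were 0.02 with the E-box and −0.01 without it. Median GC content was 51.6% with the E-box and 50.9% without it.

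Usp37, a deubiquitinase gene reported to act on Myc, was under a mean of 1 RPKM and was named after its values were seen. It was at 0.025 RPKM in the Brpf1-null and 0.718 RPKM in the wild-type library, on about 3 Brpf1-null and 84 wild-type reads, 28.7-fold lower (8.70 to 130). With its shortest coding transcript there are about 0 Brpf1-null and 10 wild-type reads and the lower limit is 2.11.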
